A study of Mus musculus with 4 samples.

Results

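The forkhead box (Fox) genes encode transcription factors that share a winged-helix DNA-binding domain, and their trimethylation of histone H3 at lysine 27 (H3K27me3) was examined here in mouse embryonic fibroblasts. Of 22691 genes in the deposited table, 41 lay outside the X chromosome and carried a symbol made of Fox, a letter from a to s and a number, and 40 of these had a value in both genotypes. Foxe3, a lens regulator and the shortest of the 41 at 867 bp, had no value in either. A further 3 forkhead genes on the X and 4 genes whose symbols only begin with Fox were left out. The members were sorted by general knowledge of where they act, since expression was not measured: 28 are lineage-restricted, 7 are the broadly expressed Foxo, Foxk, Foxj2 and Foxj3 genes, and 6 are neither (Foxm1, Foxn2, Foxn3, Foxp1, Foxp2 and Foxp4).

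The series holds chromatin immunoprecipitation sequencing of H3K27me3, made with the mouse monoclonal antibody CMA323, and matching inputs without antibody. Cells of genotype Smchd1 MD1/MD1 (MD1), SmcHD1-deficient per the series' design, were set against cells of genotype Smchd1 +/+ (WT). Both genotypes were female, of strain C57BL6/J, and taken at stage E13.5. There was 1 ChIP and 1 input library per genotype, so nothing measures the spread between cultures or fetuses, the genotypes cannot be tested against each other and p-values are absent. Each value is the authors' log2 enrichment over a whole gene, and each difference is MD1 minus WT, where -1 stands for a 2-fold lower enrichment in MD1. A gene was counted as lower or higher in MD1 when the difference reached 2-fold. SmcHD1 is a noncanonical SMC-family protein best known for its role on the inactive X chromosome and at some autosomal gene clusters, and the series' title names X inactivation as its question. The forkhead genes examined here are autosomal.

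H3K27me3 is deposited by Polycomb repressive complex 2 and marks developmental regulators in cells that do not use them. Many forkhead genes are of this kind, each switched on in a few lineages: Foxa genes in endoderm, Foxn1 in the thymus, Foxl2 in the ovary. Others, such as the insulin-responsive Foxo factors, act in most cell types, and genes in use generally lack the mark. Fibroblasts are mesenchymal cells, so regulators of mesoderm and mesenchyme such as Foxc1, Foxc2, Foxf1 and Foxd1 belong to their own developmental branch.

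Most lineage-restricted forkhead genes stood among the most H3K27me3-enriched genes in both genotypes, while 5 of 27 lay below 0 in MD1 and 2 of 27 in WT. Of the broadly expressed ones, 5 of 7 stood below the autosomal median. The 27 restricted members with values had a median log2 enrichment of 1.79 in MD1 (quartiles 0.96 and 2.33) and 2.04 in WT (quartiles 1.41 and 2.43). The 7 broadly expressed members had a median of -2.68 in MD1 (quartiles -3.41 and -1.28) and -1.95 in WT (quartiles -2.35 and -0.86). Over 19836 autosomal genes the median was -0.90 in MD1 and -0.78 in WT. The gap between the class medians was thus 4.47 in MD1 and 3.99 in WT. A log2 enrichment of at least 1 was reached by 19 of 27 restricted members in MD1 and 22 of 27 in WT, against 16.3% of autosomal genes in MD1 and 15.3% in WT. The same level was reached by 1 broadly expressed member, Foxo6, and by none of the 6 remaining forkheads, in either genotype.

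**Figure D1:**
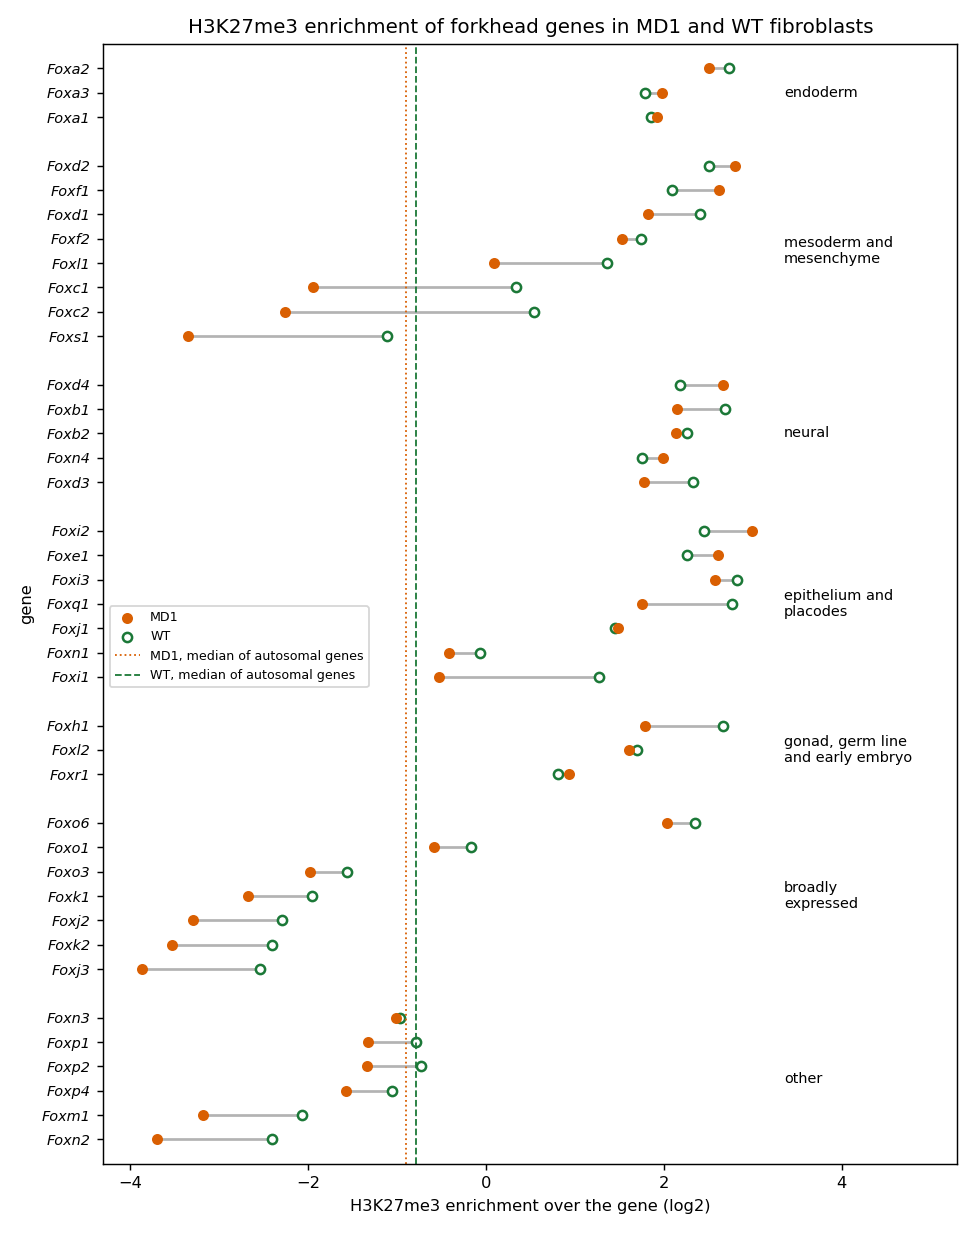
Log2 H3K27me3 enrichment over the gene (horizontal axis) of the forkhead genes reported by name (rows, grouped by where they act), with MD1 as filled and WT as open circles, 1 library pair each, and vertical lines at the autosomal medians. Most restricted genes lie near 2 in both genotypes, with long gaps between the circles at Foxc1, Foxc2, Foxs1, Foxi1 and Foxl1, and the broadly expressed genes other than Foxo6 lie below 0.

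The highest members came from several lineages. By the mean of both genotypes the top 5 were Foxi2, at 2.99 in MD1 and 2.45 in WT, the placode regulator Foxi3, at 2.58 in MD1 and 2.82 in WT, Foxd2, at 2.80 in MD1 and 2.51 in WT, the endoderm pioneer factor Foxa2, at 2.51 in MD1 and 2.74 in WT, and the thyroid regulator Foxe1, at 2.61 in MD1 and 2.27 in WT. The lowest percentile among autosomal genes that any of the 5 had in either genotype was 97.96, that of Foxe1 in WT. At the other end, the lowest 5 by mean were the broadly expressed Foxj3, Foxk2 and Foxj2 together with Foxn2, at -3.70 in MD1 and -2.41 in WT, and Foxm1, a driver of the late cell cycle, at -3.18 in MD1 and -2.07 in WT. Foxm1 is the member whose interval overlaps another listed gene, so its value can share reads.

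The broadly expressed members formed a ladder. Foxj3 was lowest, at -3.86 in MD1 and -2.54 in WT, followed by Foxk2, at -3.53 in MD1 and -2.41 in WT, and Foxj2, at -3.30 in MD1 and -2.29 in WT. Foxk1, which like Foxk2 encodes a repressor tied to metabolism, stood at -2.68 in MD1 and -1.95 in WT. Insulin and AKT signalling exclude the products of Foxo1 and Foxo3 from the nucleus. Of the Foxo genes, Foxo3 stood at -1.98 in MD1 and -1.56 in WT. Foxo1 was near the middle of all autosomal genes, at -0.59 in MD1 and -0.16 in WT, percentiles 55.1 and 61.1. Foxo6, known mainly from the brain and in this class by family name, was the exception, at 2.04 in MD1 and 2.35 in WT, percentiles 96.1 and 98.4. The order of the 7 was the same in both genotypes.

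Gene length separated the classes as well. Restricted forkheads are compact, with a median length of 3249 bp and 24 of 27 in the shortest quartile of autosomal genes (up to 7106 bp), whereas the broadly expressed ones had a median of 60519 bp and 5 of 7 were in the longest quartile. Each value is an average over the gene and does not tell where within it the mark lies. Short autosomal genes were also a little higher, with medians of -0.48 in MD1 and -0.38 in WT in the shortest quartile against -0.91 in MD1 and -0.75 in WT in the longest. Measured from the median of its own length quartile, the gap between the class medians was 4.03 in MD1 and 3.64 in WT. Within the shortest quartile, 17 of 24 forkheads in MD1 and 20 of 24 in WT reached a log2 enrichment of 1, against 24.8% of all such genes in MD1 and 24.2% in WT. Foxn4, a regulator of retinal and spinal progenitors and 19598 bp long, shows that a longer restricted gene can be high as well, at 1.99 in MD1 and 1.76 in WT, while the thymic regulator Foxn1, 29032 bp long, stood at -0.42 in MD1 and -0.06 in WT.

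**Figure D2:**
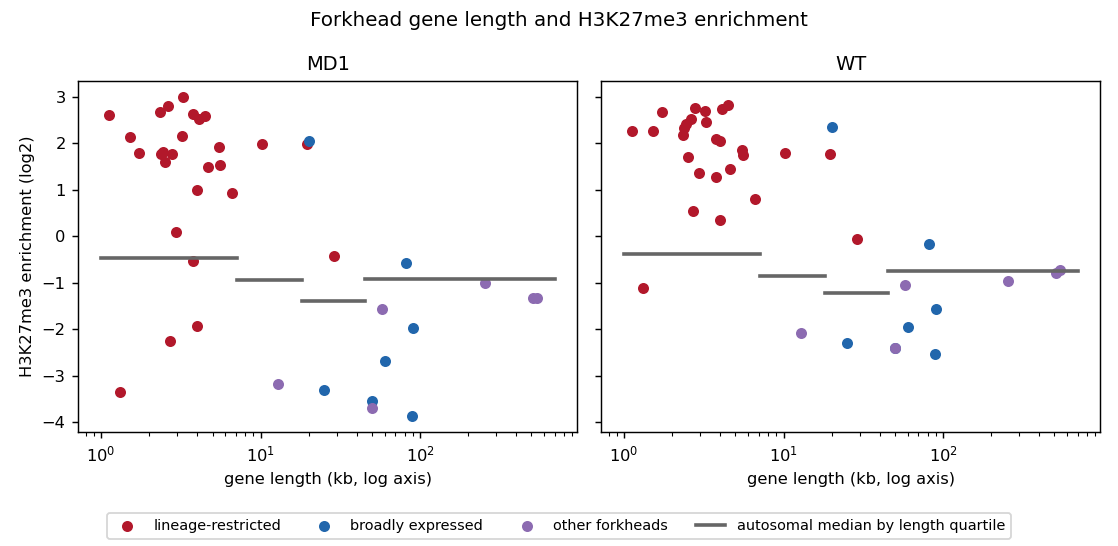
Log2 H3K27me3 enrichment of 40 forkhead genes against gene length (logarithmic axis, kb) in MD1 (left) and WT (right), coloured by class, with grey bars at the autosomal median of each length quartile. Restricted genes cluster at the short end and mostly far above the grey bars, and 1 broadly expressed gene, Foxo6, lies with them.

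No forkhead gene was higher in MD1 by the 2-fold limit, and 12 of 40 were lower. The same limit counted 20.4% of autosomal genes as lower and 1.61% as higher, and without replicates the excess of lower forkheads over that background is a description of these libraries. The 12 comprised 7 of 27 restricted members (among them Foxc2, Foxc1, Foxs1, Foxi1, Foxl1 and Foxq1), 3 of 7 broadly expressed ones (Foxj3, Foxk2 and Foxj2) and 2 others (Foxn2 and Foxm1). Differences of the restricted members ran from -2.80 to 0.54 around a median of -0.23, and those of the broadly expressed ones from -1.32 to -0.32 around a median of -0.73. The order of these class medians turned relative to genes of like level and length, at -0.32 and -0.047. The autosomal median difference was -0.27. All 7 broadly expressed and all 6 remaining forkheads were lower in MD1, as were 17 of 27 restricted ones, against 69.0% of autosomal genes. Foxl2, the ovarian regulator, is an example of a restricted gene that hardly differed, at 1.60 in MD1 and 1.70 in WT.

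**Figure D3:**
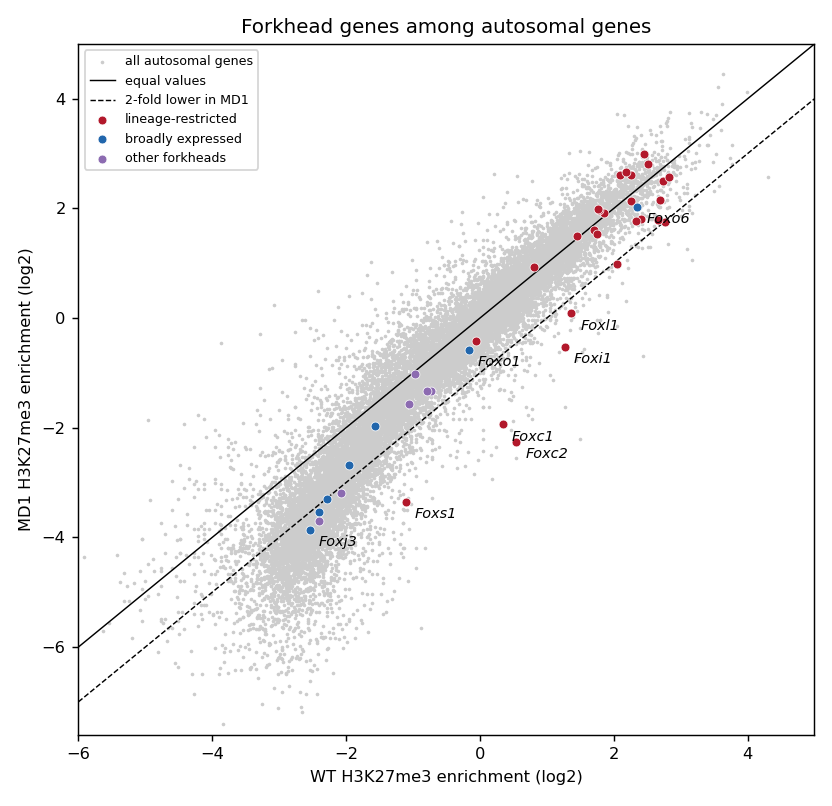
MD1 against WT log2 H3K27me3 enrichment of all autosomal genes (grey) and of the forkhead genes by class (coloured), with lines at equal values and at 2-fold lower enrichment in MD1. The broadly expressed genes follow the grey cloud, which bends below the line of equal values at low levels. Foxc1, Foxc2, Foxs1, Foxi1 and Foxl1 lie below the line of 2-fold lower enrichment, where grey points lie as well.

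The mesodermal and mesenchymal members held the largest differences. Foxc1 and Foxc2 encode paralogous factors that act in somites, vessels and the eye. Foxc2 (mm9, chromosome 8, 123640071 to 123642794, plus strand) stood at -2.25 in MD1 and 0.55 in WT, a 6.96-fold lower enrichment in MD1. Foxc1 (mm9, chromosome 13, 31898515 to 31902504, plus strand) stood at -1.94 in MD1 and 0.34 in WT, a 4.86-fold lower enrichment. Both lay above the autosomal median in WT, at percentiles 76.2 (Foxc2) and 71.9 (Foxc1), and below it in MD1, at percentiles 34.1 and 37.6. Among the 7070 autosomal genes with a WT value above 0, a loss of 4-fold or more was seen at 26 (0.368%), Foxc1 and Foxc2 included. These limits were set with the values of both genes known and leave out Foxs1, 4.74-fold lower with a WT value of -1.11. The share covers genes of all lengths and is not given for short genes alone. Whatever the WT value, 206 autosomal genes (1.04%) had a difference as low as that of Foxc2, and 462 (2.33%) as low as that of Foxc1. Both genes are in the shortest length quartile, where the difference had a standard deviation of 1.03 over autosomal genes, against 0.55 in the longest.

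Foxs1, known in the mouse from perivascular cells and sensory neurons, stood at -3.35 in MD1 and -1.11 in WT, a 4.74-fold lower enrichment. It was the restricted member with the least mark in both genotypes. Foxl1, expressed in gut mesenchyme, stood at 0.09 in MD1 and 1.37 in WT, 2.43-fold lower. These 4 genes are short, and the deposited values have the form of a ratio of whole numbers, which in lowest terms was 3 to 14 for Foxc2, 4 to 15 for Foxc1, 1 to 10 for Foxs1 and 38 to 35 for Foxl1 in MD1. In WT the ratios were 17 to 12 for Foxc2, 59 to 48 for Foxc1, 9 to 20 for Foxs1 and 5 to 2 for Foxl1. If these are reads, the MD1 values of Foxs1, Foxc2 and Foxc1 may each rest on few. The other 4 mesenchymal members stayed high: Foxf1, which directs lung and gut mesenchyme, stood at 2.62 in MD1 and 2.09 in WT, its paralogue Foxf2 at 1.53 in MD1 and 1.74 in WT, the kidney stroma regulator Foxd1 at 1.82 in MD1 and 2.40 in WT, and Foxd2 at 2.80 in MD1 and 2.51 in WT. In MD1 these 4 stood at 1.53 or more and the other 4 at 0.09 or less. The same 4 were already the higher ones in WT, at 1.74 or more against 1.37 or less. The WT values of the 8 ran from -1.11 to 2.51.

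In the genome, Foxc genes that were lower share clusters with Foxf genes that were not. On chromosome 8, Foxf1, Foxc2 and Foxl1 lie in a row, with 28016 bp between Foxf1 and Foxc2 and 8790 bp between Foxc2 and Foxl1. Foxf1 and its divergent noncoding neighbour Fendrr, at 2.97 in MD1 and 2.58 in WT, were 0.52 and 0.39 higher in MD1, while Foxc2 and Foxl1 were 2.80 and 1.28 lower. Mthfsd, between Foxf1 and Foxc2, was also past the limit, 1.04 lower, at -2.57 in MD1 and -1.53 in WT, so both listed neighbours of Foxc2 were counted as lower. Relative to genes of like level and length, a measure described further on, Mthfsd was 0.55 lower. The cluster on chromosome 13 showed the same arrangement of Foxf against Foxc paralogue: Foxq1 was 1.01 lower, at 1.76 in MD1 and 2.76 in WT, Foxf2 only 0.21 lower, and Foxc1, 175239 bp beyond Foxf2, 2.28 lower. Between Foxq1 and Foxf2, 1700018A04Rik stood at 1.16 in MD1 and 1.497 in WT, and Gmds, past Foxc1, at -0.80 in MD1 and -0.20 in WT. On chromosome 4, Foxd2 lies 16248 bp from the unmeasured Foxe3, and its antisense neighbour Foxd2os stood at 1.74 in MD1 and 2.03 in WT.

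**Figure D4:**
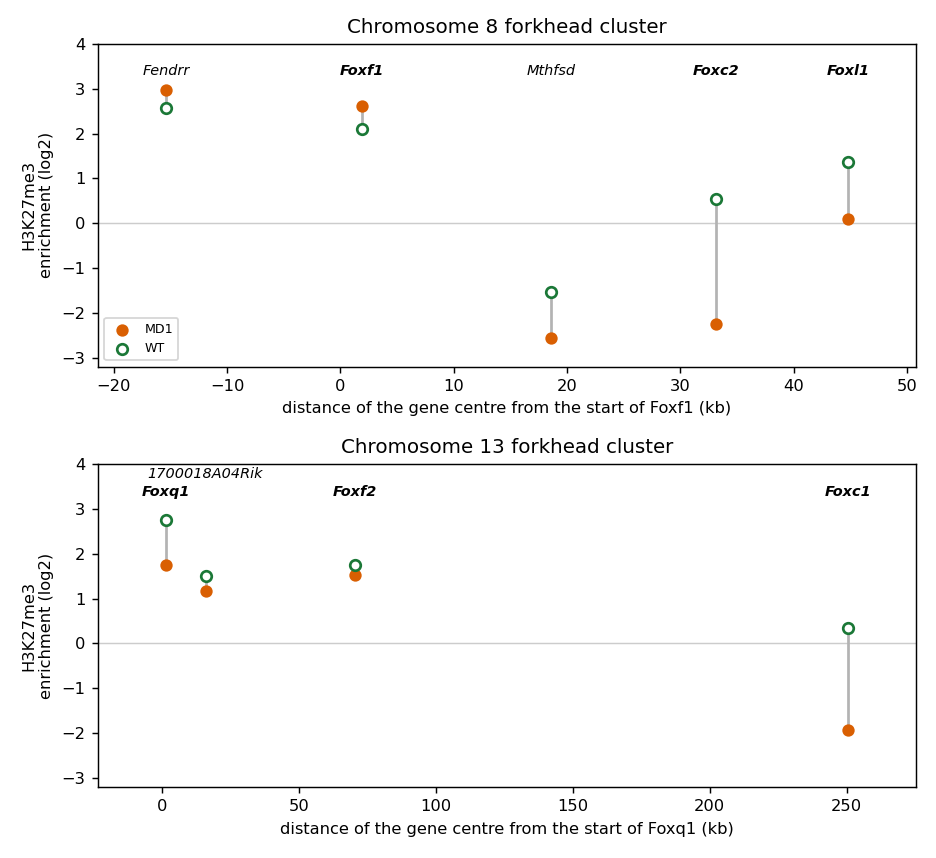
Log2 H3K27me3 enrichment of each listed gene in the forkhead clusters of chromosome 8 (top) and chromosome 13 (bottom) by distance from the start of the first forkhead gene (kb), with MD1 as filled and WT as open circles and forkhead names in bold. The circles of Foxf1 and Foxf2 lie 0.52 or less apart, and those of Foxc2 and Foxc1 2.28 or more.

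The promoter sequences of 26 of the 41 genes were found in RefSeq (GRCm38.p6, 250 bases before to 50 after the start). They are shown for the neighbours Foxc1 (chr13:31806396-31806695, plus strand) and Foxf2 (chr13:31625566-31625865, plus strand), of which Foxc1 was lower and Foxf2 not, for Foxi1 (chr11:34208040-34208339, minus strand), a lower gene with few CG dinucleotides, and for the broadly expressed Foxk2 (chr11:121259737-121260036, plus strand), which had the most. Sequences run 5′ to 3′ and capitals mark each CG dinucleotide, the feature of the islands to which Polycomb complexes are commonly recruited in mammals.
Foxc1: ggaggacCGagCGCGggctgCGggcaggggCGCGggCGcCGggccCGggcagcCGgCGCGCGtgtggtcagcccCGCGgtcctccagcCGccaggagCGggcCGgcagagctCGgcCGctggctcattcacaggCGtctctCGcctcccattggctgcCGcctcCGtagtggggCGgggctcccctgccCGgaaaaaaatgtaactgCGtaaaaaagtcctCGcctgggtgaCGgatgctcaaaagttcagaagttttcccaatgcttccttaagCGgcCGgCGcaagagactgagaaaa
Foxf2: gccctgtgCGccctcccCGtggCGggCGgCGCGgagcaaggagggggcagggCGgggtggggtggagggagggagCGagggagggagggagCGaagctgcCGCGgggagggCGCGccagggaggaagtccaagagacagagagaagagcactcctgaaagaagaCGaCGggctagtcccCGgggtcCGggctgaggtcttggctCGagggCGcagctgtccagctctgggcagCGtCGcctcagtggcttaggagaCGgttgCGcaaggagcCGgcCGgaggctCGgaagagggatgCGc
Foxi1: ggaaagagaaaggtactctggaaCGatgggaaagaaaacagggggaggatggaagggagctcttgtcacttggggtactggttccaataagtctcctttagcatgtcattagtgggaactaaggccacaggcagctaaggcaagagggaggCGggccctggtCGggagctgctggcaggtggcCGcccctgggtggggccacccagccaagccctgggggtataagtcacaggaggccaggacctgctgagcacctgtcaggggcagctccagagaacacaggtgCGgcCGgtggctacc
Foxk2: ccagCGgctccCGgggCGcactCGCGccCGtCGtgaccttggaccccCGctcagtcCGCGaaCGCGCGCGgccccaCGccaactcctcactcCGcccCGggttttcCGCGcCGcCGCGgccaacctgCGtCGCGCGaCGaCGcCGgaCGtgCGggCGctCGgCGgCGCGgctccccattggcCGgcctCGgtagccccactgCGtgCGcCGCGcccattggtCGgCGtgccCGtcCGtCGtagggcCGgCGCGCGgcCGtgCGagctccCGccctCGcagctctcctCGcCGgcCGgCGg

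Of the 7 restricted genes counted as lower, a sequence was found for 2, Foxc1 with 32 CG dinucleotides and Foxi1 with 6. The 3 lower broadly expressed genes had 37 (Foxj2), 42 (Foxj3) and 59 (Foxk2). Foxf2, which was not lower, had 27, and Foxi2 and Foxi3, paralogues of Foxi1, had 5 and 31. With the richest window taken for genes with several starts, the 18 restricted genes found had a median of 22 (range 5 to 32) and the 5 broadly expressed ones a median of 37 (range 31 to 59), against 8 over 25748 autosomal genes. By class median, the restricted genes thus had more of the mark and fewer CG dinucleotides than the broadly expressed ones. Both CG medians lay above the autosomal one, and no sequence was found for Foxo6, the broadly expressed gene with a high mark. Over the 17 restricted genes with both a value and a promoter, Spearman's rho between CG count and difference was -0.20, a description across genes of the same 2 library pairs, in which 2 of the genes were counted as lower. The forkhead recognition motif GTAAACA, searched on both strands, was present in 1 of the 26 genes, Foxa1, and in 3.53% of the 25748 autosomal genes, counted the same way.

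Neural members such as Foxd4 and Foxb1 were high in both genotypes. Foxd4 stood at 2.66 in MD1 and 2.18 in WT, Foxb1, a regulator of the hypothalamus, at 2.15 in MD1 and 2.68 in WT, and Foxb2 at 2.14 in MD1 and 2.26 in WT. Foxd3, which maintains the neural crest, stood at 1.78 in MD1 and 2.33 in WT.

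Of the 7 epithelial and placodal members with values, 2 were lower by the limit and none was higher. The autosomal shares were 20.4% lower (22.2% in the shortest length quartile) and 1.61% higher, so in 7 genes this count is near the background. Foxi1, needed in the inner ear and in kidney intercalated cells, stood at -0.52 in MD1 and 1.27 in WT, a 3.48-fold lower enrichment, with ratios in lowest terms of 27 to 38 in MD1 and 68 to 29 in WT. Its paralogues Foxi2 and Foxi3 differed by 0.54 and -0.25, within the limit, so that the Foxi genes spread over 3.52 log2 units in MD1 and 1.55 in WT. Foxq1, a regulator of hair structure, was 2.01-fold lower, just past the limit. Foxe1 differed by 0.35, and Foxj1, the master regulator of motile cilia, stood at 1.49 in MD1 and 1.45 in WT.

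None of the 3 endodermal and the 3 gonadal or early embryonic members passed the limit. With 20.4% of autosomal genes lower and 1.61% higher, so few genes cannot be told from the background. Foxa1 stood at 1.92 in MD1 and 1.86 in WT, and Foxa3 at 1.98 in MD1 and 1.79 in WT. Foxh1, the SMAD partner in Nodal signalling, was 0.88 lower, at 1.79 in MD1 and 2.67 in WT. Foxr1 stood at 0.94 in MD1 and 0.81 in WT. Of the long forkheads outside either class, the Foxp genes, which act in lung, heart and brain, lay in a narrow band: Foxp1 at -1.32 in MD1 and -0.79 in WT, Foxp2 at -1.33 in MD1 and -0.73 in WT, and Foxp4 at -1.57 in MD1 and -1.05 in WT. Foxn3 stood at -1.01 in MD1 and -0.96 in WT.

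The 5 highest differences of any forkhead were those of Foxi2 (0.54), Foxf1 (0.52), Foxd4 (0.48), Foxe1 (0.35) and Foxd2 (0.29), all below 1.5-fold. The restricted class was more widely spread in MD1 than in WT, with a standard deviation over genes of 1.64 in MD1 and 0.96 in WT. Split at the class median of the WT value, 5 of the 13 genes below it and 2 of the 14 at or above it were counted as lower in MD1, against 20.4% of autosomal genes. The MD1 values of the 13 genes below it ran from -3.35 to 1.99.

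MD1 values were more widely spread than WT values over all autosomal genes, where a straight line of MD1 on WT had a slope of 1.254, so genes of low level are lower in MD1 as a rule. Each difference was therefore also measured from the median difference of like genes, the 500 autosomal genes of the same length quartile whose mean levels were closest. By this measure 7 forkheads were lower by 2-fold or more, against 3.41% of autosomal genes and 10.0% of those in the shortest quartile, and none was higher, against 3.16%. All 7 were restricted members, among them Foxc2 (-2.72), Foxc1 (-2.20), Foxi1 (-1.76), Foxs1 (-1.75), Foxl1 (-1.30) and Foxq1 (-1.10). Among autosomal genes this relative difference had a standard deviation of 0.86 in the shortest quartile, where all 7 lie, and of 0.28 in the longest. The broadly expressed members ran from -0.46 (Foxo6) to 0.08 (Foxo3), with Foxj3 at -0.12, Foxk2 at -0.05 and Foxj2 at -0.0012. Foxn2 and Foxm1 came to -0.18 and -0.25. Foxq1 came within the limit when all differences were centred on the autosomal median, at -0.73.

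**Figure D5:**
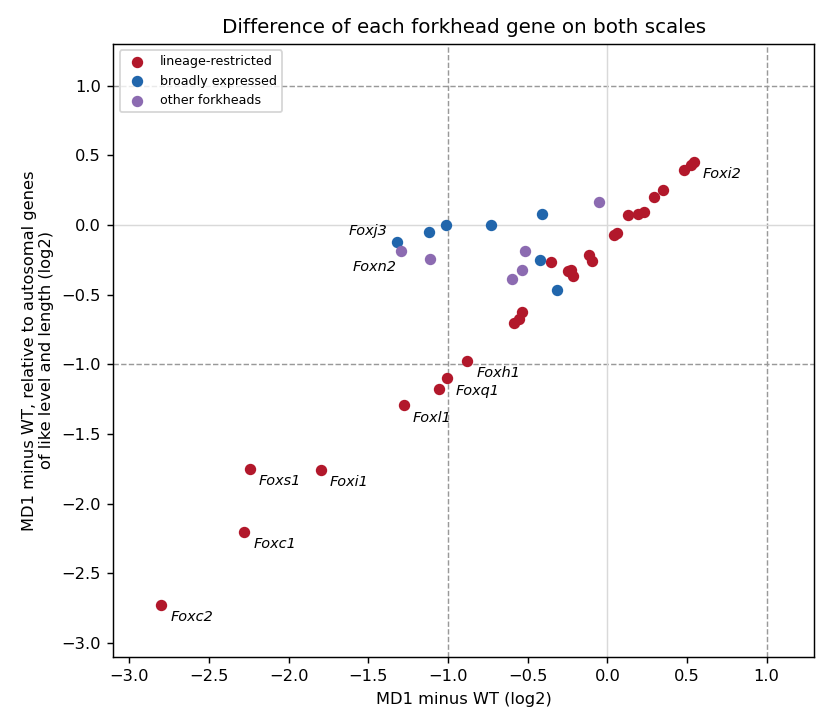
MD1 minus WT log2 difference of each forkhead gene (horizontal axis) against the same difference measured from like genes (vertical axis), coloured by class, with dashed lines at 2-fold. On the vertical axis the broadly expressed genes lie between -0.12 and 0.08, except Foxo1 at -0.25 and Foxo6 at -0.46. On the same axis 7 restricted genes stay at or below -1.10.

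Genes of the pathways around the forkheads were read from lists chosen by general knowledge, and their counts stand against 20.4% of autosomal genes lower, and 3.41% lower and 3.16% higher relative to like genes. None of 17 regulators of FoxO activity was past the limit relative to like genes; 5 were lower before that adjustment, among them Akt1 (-3.83 in MD1 and -2.40 in WT). Of 20 FoxO target genes 5 were lower. Relative to like genes 1 of the 20 was lower, Klf2, a regulator of lymphocyte and endothelial quiescence, at -4.28 in MD1 and -1.35 in WT, and 1 was higher, Ccng2, at -2.84 in MD1 and -3.22 in WT. The 12 Foxm1 target genes of mitosis had medians of -3.47 in MD1 and -2.23 in WT, and 8 were lower, among them Aurkb (-5.26 in MD1 and -3.04 in WT), but none relative to like genes. In the hedgehog pathway, which acts upstream of Foxf1 and Foxl1, none of 11 genes was lower and 1 was higher, the transcription factor gene Gli2, at 0.41 in MD1 and -0.78 in WT, while Shh stayed high at 3.31 in MD1 and 3.13 in WT. None of 11 liver and endoderm targets of Foxa factors and none of 16 cilia genes downstream of Foxj1 was counted as lower or higher, although relative to like genes 1 cilia gene, Tubb4b, was 2.01 higher, at -3.49 in MD1 and -4.04 in WT. Of 15 cofactors 7 were lower, led by Asxl2 (-4.09 in MD1 and -2.40 in WT). Relative to like genes none of the cofactors was lower and 1 was higher, Bap1, at -2.91 in MD1 and -3.08 in WT.

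Other developmental regulators gave a similar level. The 38 autosomal genes of the Sox, Pax, Gata and sine oculis homeobox families had medians of 1.44 in MD1 and 1.74 in WT and a median difference of -0.04. Of these, 2 (5.26%) counted as lower and 1 as higher, and relative to like genes 1 was lower and 1 higher. Of the restricted forkheads, 7 of 27 (25.9%) were lower by either measure. The autosomal share was 20.4% as deposited, and relative to like genes 3.41%, or 10.0% in the shortest quartile. The sets differ in length: 24 of 27 restricted forkheads lie in that quartile, where differences spread most, against 18 of these 38 genes. Without replicates the difference in counts between families could not be tested.

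The labelled cell type was read from the mark at marker genes. The 14 fibroblast markers had medians of -3.35 in MD1 and -2.79 in WT and none reached 0, with Col1a1 at -3.99 in MD1 and -2.73 in WT. The 21 markers of epithelium, blood, endothelium, nerve, muscle and germ line had medians of 0.78 in MD1 and 0.70 in WT. Of the 21, 5 lay below 0 in both genotypes, the neuronal Map2, the endothelial Kdr and all 3 blood markers: Cd68, a macrophage marker, at -3.99 in MD1 and -2.42 in WT, as low as fibroblast markers, Emr1 at -0.76 in MD1 and -0.47 in WT, and Ptprc at -0.25 in MD1 and -0.07 in WT. The part of blood cells in the forkhead values was not tested. Smchd1 itself stood at -3.47 in MD1 and -2.44 in WT, a value that does not check the mutation. The mark in bulk cells cannot tell fewer marked cells from less mark in each cell.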

How the data were processed

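H3K27me3 ChIP and input libraries, 1 of each for MD1 and for WT fibroblasts, were sequenced, and the authors deposited 1 table of log2 enrichments per gene, per the file headers. The submitters' processing notes name the build mm9. Of the aligner, counting, filters and denominator nothing is stated: not given in the sources used here. Less a constant (-0.032 for MD1 and 0.043 for WT), 99.95% of the deposited log2 values in MD1 and 99.98% in WT are logarithms of whole-number ratios with terms up to 20000, at a relative tolerance of 1e-12. Read depth is unknown, so no counting interval is given. Positions count the first base as 1.

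Medians, quartiles and counts past 2-fold were computed with Python 3.11.15, numpy 2.4.6, pandas 2.3.3 and scipy 1.17.1, figures with matplotlib 3.10.9. The relative difference was run on simulated data with planted changes. The simulated noise was smaller than the spread of these data among short genes, so that run does not show how the measure performs there. Members, classes and lists were chosen with earlier results of these data known. Named were all broadly expressed members, the 5 lowest and 5 highest by difference and by mean level, members within 200 kb of another, up to 2 genes of each pathway list and Smchd1, with further members as examples. In counts and medians, 1 member and 1 pathway gene are included that are not reported by name here. Alternatives were other centrings, pseudocounts, limits, filters, summaries and class memberships. The authors' table gave 1 enrichment column per genotype, and genotypes were set side by side without a test.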

Additional observations from a re-analysis of the deposited data

How the results depend on the processing

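No paired analysis was possible because each genotype has 1 library of each kind. No forkhead gene counted as higher under any setting tried, limits of 1.5-fold and 3-fold included. The autosomal share counted as higher at those limits is not given here. The 12 lower genes became 7 when differences were centred on the autosomal median, an alternative added after the data were seen, 7 relative to like genes, 7 with only genes at or above the 25th percentile of mean level, 4 at a limit of 3-fold and 2 (Foxc2 and Foxi1) with a pseudocount of 1. Backgrounds among autosomal genes under these settings were 13.3%, 3.41%, 4.71%, 7.61% and 0.156%. Centring each genotype on its own median shifts every difference by 0.11 and left 9. The autosomal share for that centring is not given here, so the 9 cannot be set against a background.

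The median difference of restricted genes, -0.23, became 0.042 after centring on the autosomal median and was -0.50 as a mean, -0.32 relative to like genes and -0.16 with a pseudocount of 1. That of broadly expressed genes, -0.73, was -0.46 after centring, -0.047 relative to like genes, -0.13 with a pseudocount of 1 and -0.42 above the level filter, which leaves 4 of 7. Restricted genes thus had the lower median of the classes relative to like genes and with a pseudocount of 1, and the higher one as deposited; the cause was not tested. The gap between class medians of 4.47 in MD1 and 3.99 in WT was 1.95 and 2.02 with a pseudocount of 1, 3.25 and 2.99 as means and 4.03 and 3.64 relative to length quartiles. In MD1 it was 4.79 with Foxo6 counted as restricted and 4.12 with 5 more genes counted as broad. A median counts as moved here at 0.2 or more. The restricted genes were above the broad ones under all of these. Unknown depth limits single values, most of all those of short genes.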

Other observations

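The 26 autosomal genes with a WT value above 0 and an at least 4-fold lower MD1 value held other developmental regulators beside Foxc1 and Foxc2. Irx2, an Iroquois homeobox gene, stood at -2.56 in MD1 and 0.54 in WT, and Hlx, a homeobox gene of visceral mesenchyme, at -1.66 in MD1 and 0.78 in WT. Both were picked from the 26 after their values were seen, and several of the others are olfactory receptor genes.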
